A study of Mus musculus with 5 samples.

Results

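Before myoblasts can merge into a multinucleated muscle fiber they have to recognize each other, adhere and then open a pore between their membranes. The genes described here encode the proteins of that sequence of contacts: the muscle fusogens Mymk and Mymx, the receptors Cdon, Boc and Neo1, the cadherins Cdh2 and Cdh15 with the cadherin partner beta-catenin (Ctnnb1), and the junctional adhesion molecules Jam2 and Jam3. They were taken by name from the deposited gene table, which lists 54232 genes. All 10 were present, and all 10 were among the 18156 genes that passed the filter on low values and could be tested.

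RNA was sequenced from primary myoblasts of WT mice (n = 3) and of Elmo2 EID/EID mice (n = 2), each differentiated for 72 h in medium with low horse serum. Elmo2 EID/EID mice carry a homozygous point mutation in the ELMO inhibitory domain of ELMO2, which favors the open form of this activator of the RAC exchange factor DOCK. The allele was made by homologous recombination and is present in every cell of the mouse, and the mice of both groups were of a mixed C57BL6 and 129SV background. Per the study's methods, myoblasts were taken from mice aged 6 to 8 weeks. Myoblasts were selected from leg muscle with magnetic beads for satellite cells, so other cells of the muscle may have been carried into the cultures. The authors sequenced the RNA to look for expression changes that might compensate for the altered ELMO2, with a focus on fusion genes. The labels number the samples but do not say that each came from a separate mouse, so the p-values below measure the spread between these samples, which may be partly technical.

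As background, fusion in vertebrate muscle depends on a pair of proteins made almost exclusively by differentiating muscle. Myomaker, the product of Mymk, is a membrane protein that crosses the membrane several times and is needed on both partners for the outer membrane leaflets to mix. Myomixer (also myomerger or minion), the product of Mymx, is a microprotein that drives the opening of the fusion pore. Cdon and Boc are related receptors of the immunoglobulin superfamily that associate with each other, with neogenin (Neo1) and with N-cadherin, and pass signals of cell contact to CDC42 and p38 MAP kinase, which raise the activity of the myogenic transcription factors. N-cadherin (Cdh2) and M-cadherin (Cdh15) bind their own kind on the neighboring cell and are tied to actin through beta-catenin and alpha-catenin. JAM-B (Jam2) and JAM-C (Jam3) bind each other across the gap between cells.

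The cultures carried the RNA of differentiating muscle in both genotypes. Myogenin (Myog), the transcription factor of early differentiation, had 50441, 47286 and 48336 normalized counts in WT replicates 1, 2 and 3 and 53544 and 50612 in Elmo2 EID/EID replicates 1 and 2. The 10 markers of differentiated muscle summed to between 1886983 and 2212737.5 normalized counts in WT myoblasts, against between 1865105 and 2088557.5 in Elmo2 EID/EID myoblasts. Limma, edgeR and DESeq2 (tests and fold changes described below) each called 0 of the 10, against 2.23%, 2.25% and 5.34% of all genes tested. The groups of 6 did not overlap (32.6% of all genes), and 4 log2 fold changes were positive and 6 negative. Myod1, at -0.16, was the 1 marker with an unadjusted limma p under 0.05 (15.2% of all genes). A normalized count is the number of reads of a gene divided by a size factor of its sample, and recovered totals were between 35021856 and 49381544 reads per sample. Fold changes are Elmo2 EID/EID over WT computed from log2(normalized count + 1), and a gene was called when its adjusted p from limma, after Benjamini-Hochberg adjustment over all genes tested, was under 0.05.

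By limma 0 of the 10 genes were called as different between the genotypes, where 2.23% of all tested genes were called. Run on recovered reads, edgeR's quasi-likelihood test also called 0 of the 10, against 2.25% of all genes, and the DESeq2 Wald test 0 of the 10, against 5.34%. Boc and Jam3 had an unadjusted p under 0.05, as did 15.2% of all genes tested. These same 2 genes were the ones whose groups did not overlap, against 32.6% of all genes, and both were lower in the Elmo2 EID/EID samples. Of the 10 fold changes 4 were positive and 6 negative, with a median of -0.12 on the log2 scale, where the median of all genes tested was 0.01.

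**Figure D1:**
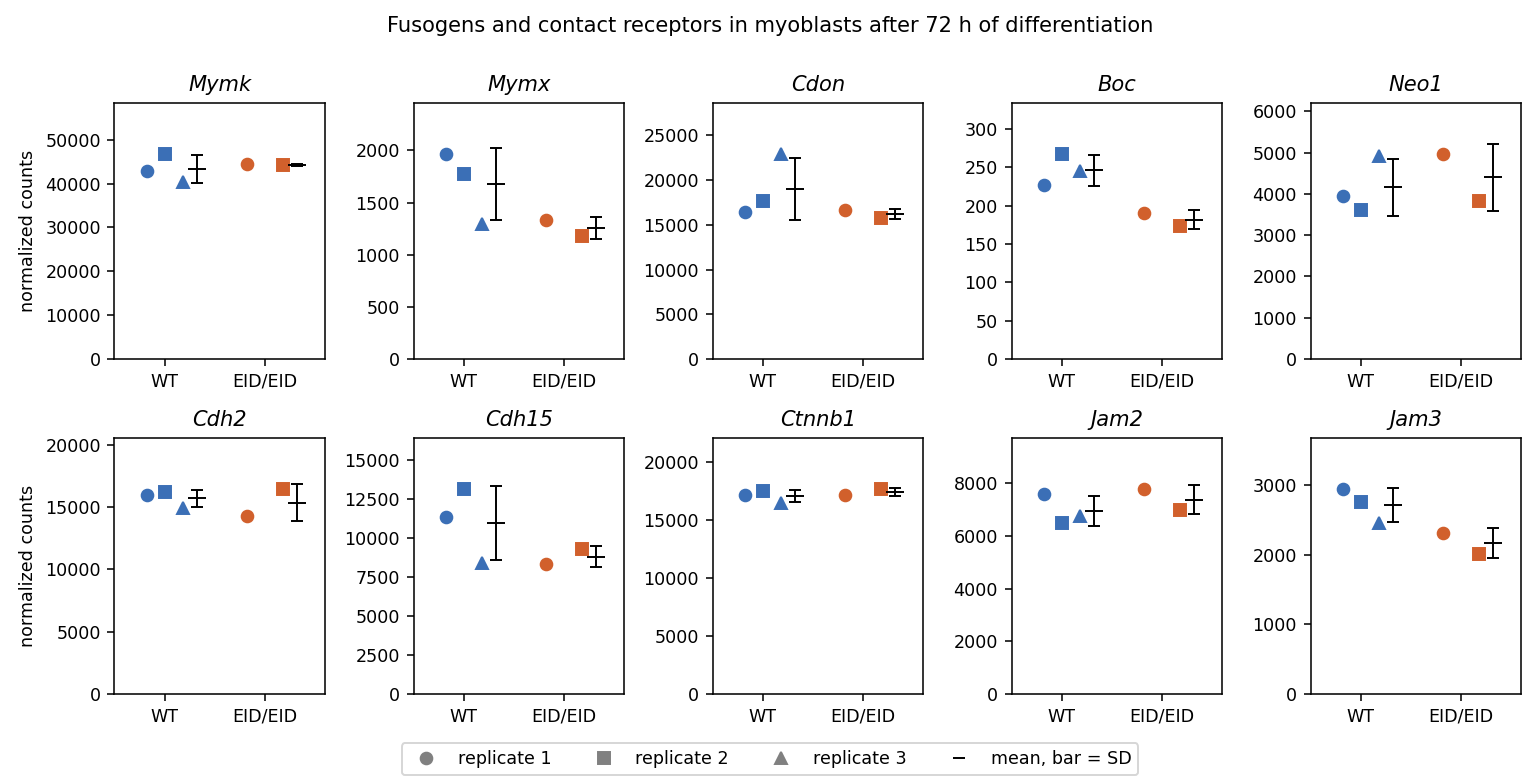
Normalized counts (vertical axes, each starting at 0) of the 10 genes in WT myoblasts (blue) and Elmo2 EID/EID myoblasts (orange) after 72 h of differentiation, with circles, squares and triangles for replicates 1, 2 and 3 and black bars for the mean and SD. The groups are apart for Boc and Jam3 and overlap for the other genes.

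Mymk had the highest level per exon length of these genes, and its genotype means differed by less than the spread of the WT samples. Mymx had a lower mean in Elmo2 EID/EID myoblasts, with groups that overlapped, and neither fusogen passed the test. Mymk (ENSMUSG00000009214, GRCm38 chromosome 2, 27061636 to 27072179, minus strand) had 42775, 46722 and 40409.8 normalized counts in WT replicates 1, 2 and 3, and 44475 and 44173 in Elmo2 EID/EID replicates 1 and 2. Both Elmo2 EID/EID values thus fell inside the range of the WT samples. The means were 43302 ± 3189 (SD, n = 3) and 44324 ± 213 (SD, n = 2). This corresponds to a log2 fold change of 0.04, with a standard error (SE) of 0.08 and a limma adjusted p of 0.881. Its 95% confidence interval, written as a fold, ran from 0.897 to 1.17.

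Mymx (ENSMUSG00000079471, chromosome 17, 45600971 to 45602102, minus strand) had 1965, 1774.5 and 1295 normalized counts in WT myoblasts, against 1333 and 1184 in Elmo2 EID/EID myoblasts. WT replicate 3 lay below Elmo2 EID/EID replicate 1, so the groups overlapped by that sample. On the log2 scale the difference was -0.40 (SE 0.17, 95% confidence interval -0.81 to 0.02, limma adjusted p = 0.349). The value depended on single WT samples. Without WT replicate 3 the log2 fold change was -0.57 with an adjusted p of 0.0561 from limma, the lowest that any of the 10 genes reached in any of the 15 alternative analyses. It was -0.27 without WT replicate 1.

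Within each sample, the ratio of the fusogens does not depend on the size factor. There were 21.8, 26.3 and 31.2 Mymk counts for each Mymx count in the WT samples, against 33.4 and 37.3 in the Elmo2 EID/EID samples. The groups did not overlap, but the range of the WT samples was wider than the step between genotype means. The difference of 0.43 on the log2 scale had p = 0.2 in an exact two-sided permutation test over the 10 ways of splitting the samples, which cannot give a p below 0.1. After adjustment over the 4 ratios tested it was 0.4.

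Of the receptors that relay contact to the myogenic program, Cdon had the highest and Boc by far the lowest level per exon length in both genotypes, with Neo1 between them. None of the 3 passed the test, and Boc was the one whose groups did not overlap. Boc (ENSMUSG00000022687, chromosome 16, 44485049 to 44558897, minus strand) had 226, 267 and 245 normalized counts in WT myoblasts, against 190.5 and 173 in Elmo2 EID/EID myoblasts. Every WT sample lay above both Elmo2 EID/EID samples. The means were 246 ± 20.4 (SD, n = 3) and 182 ± 12.35 (SD, n = 2), a ratio of 0.739. The log2 fold change of -0.43 was the most negative of the 10 genes, with a standard error of 0.13 and a 95% confidence interval from -0.75 to -0.12. Its unadjusted p of 0.0138 became an adjusted p of 0.186 from limma, and edgeR and DESeq2 gave adjusted p-values of 0.19 and 0.193. These levels rest on 256, 238 and 197 recovered reads in WT replicates 1, 2 and 3, and on 213 and 193 in Elmo2 EID/EID replicates 1 and 2. As 95% Poisson intervals, counting error spans 199 to 256, 234 to 303 and 212 to 282 normalized counts for the WT samples in that order, and 166 to 218 and 149.5 to 199 for the Elmo2 EID/EID samples. The libraries carried no molecular identifiers, so these intervals cover counting error only and not copies made by PCR.

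Cdon (ENSMUSG00000038119, chromosome 9, 35421128 to 35507652, plus strand) had 16386, 17668 and 22902 normalized counts in WT myoblasts, against 16630.1 and 15792 in Elmo2 EID/EID myoblasts. WT replicate 3 was the high sample, and WT replicate 1 lay between the Elmo2 EID/EID values. Cdon had a log2 fold change of -0.21 (SE 0.14, 95% confidence interval -0.54 to 0.12, limma adjusted p = 0.537), which became -0.07 without WT replicate 3. Neo1 (ENSMUSG00000032340, chromosome 9, 58874687 to 59036441, minus strand) had 3946, 3603 and 4920.1 normalized counts in WT myoblasts, against 4963 and 3831 in Elmo2 EID/EID myoblasts. Its groups spanned nearly the same range. Its log2 fold change of 0.08 had an SE of 0.16, an interval from -0.29 to 0.46 and a limma adjusted p of 0.86, and it became -0.11 without Elmo2 EID/EID replicate 1 and -0.02 without WT replicate 2. The ratio of Cdon to Boc, 72.5, 66.2 and 93.5 in the WT samples against 87.3 and 91.3 in the Elmo2 EID/EID samples, overlapped between the genotypes (exact permutation p = 0.4).

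The cadherin pair differed in how steadily it was expressed among the WT samples. There N-cadherin and beta-catenin varied little, and M-cadherin varied more than any other of the 10 genes, with an SD of 0.33 on the log2 scale against 0.06 for Cdh2 and 0.04 for Ctnnb1. The Elmo2 EID/EID samples did not share this difference, with means of 15363 ± 1500 for Cdh2 and 8818.5 ± 687 for Cdh15 (SD, n = 2). Cdh2 (ENSMUSG00000024304, chromosome 18, 16588877 to 16809246, minus strand) had 15961, 16228 and 14926 normalized counts in WT myoblasts, against 14302 and 16424 in Elmo2 EID/EID myoblasts. The Elmo2 EID/EID samples enclosed the WT samples from both sides. Cdh2 had a log2 fold change of -0.03 (SE 0.08, limma adjusted p = 0.888), and its interval corresponded to folds from 0.855 to 1.12.

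Cdh15 (ENSMUSG00000031962, chromosome 8, 122847966 to 122867397, plus strand) had 11377, 13142 and 8413 normalized counts in WT myoblasts, against 8332.5 and 9305 in Elmo2 EID/EID myoblasts. WT replicate 3 lay between the Elmo2 EID/EID samples, and the other 2 WT samples were above both. The means were 10977 ± 2390.0 (SD, n = 3) and 8818.5 ± 687 (SD, n = 2). Cdh15 had a log2 fold change of -0.29 (SE 0.18, 95% confidence interval -0.71 to 0.13, limma adjusted p = 0.498). It was -0.47 without WT replicate 3 and -0.15 without WT replicate 2. N-cadherin counts per M-cadherin count were 1.403, 1.24 and 1.77 in the WT samples against 1.72 and 1.76 in the Elmo2 EID/EID samples, again with WT replicate 3 next to the Elmo2 EID/EID samples (exact permutation p = 0.4).

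Ctnnb1 (ENSMUSG00000006932, chromosome 9, 120929216 to 120960507, plus strand), which serves both as the link between cadherins and actin and as the effector of Wnt signaling, had 17180.3, 17525 and 16525 normalized counts in WT myoblasts, against 17176 and 17671 in Elmo2 EID/EID myoblasts. Among the WT samples these were the most uniform values of the 10 genes. Its log2 fold change was 0.03, with an SE of 0.06 and a limma adjusted p of 0.87. The interval, from 0.923 to 1.13 as a fold, was the narrowest of the 10. Ctnnb1 shares 23 exonic bases, 0.443% of its exon length, with the microRNA gene Mir7090 on the same strand, which was listed at 0 in every sample. The other 9 genes share no exonic base with another gene on their strand.

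Of the receptors JAM-B and JAM-C, which bind each other, neither passed the test, and the fold change of Jam2 did not differ from 0 beyond its error. Jam2 (ENSMUSG00000053062, chromosome 16, 84774123 to 84825928, plus strand) had 7586, 6486 and 6759.8 normalized counts in WT myoblasts, against 7763 and 6982 in Elmo2 EID/EID myoblasts, so the groups overlapped. Jam2 had a log2 fold change of 0.09 (SE 0.09, limma adjusted p = 0.711), with folds from 0.919 to 1.23 within its interval, and ranged from 0.01 without Elmo2 EID/EID replicate 1 to 0.16 without Elmo2 EID/EID replicate 2. Jam3 (ENSMUSG00000031990, chromosome 9, 27097384 to 27155421, minus strand) had 2942, 2757 and 2459 normalized counts in WT myoblasts, against 2319.9 and 2019.8 in Elmo2 EID/EID myoblasts. Both Elmo2 EID/EID samples lay under the lowest WT sample. The means were 2719 ± 244 (SD, n = 3) and 2169.8 ± 212 (SD, n = 2), a ratio of 0.798, and the log2 fold change was -0.33 with a standard error of 0.10 and a 95% confidence interval from -0.56 to -0.09. Its adjusted p was 0.192 from limma, 0.171 from edgeR and 0.0936 from DESeq2.

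The ratio of Jam2 to Jam3 within a sample was 2.58, 2.35 and 2.75 in WT replicates 1, 2 and 3 and 3.35 and 3.46 in Elmo2 EID/EID replicates 1 and 2. The step between the genotypes was larger than the range of either group. It amounted to 1.33-fold, or 0.41 on the log2 scale, with p = 0.1 in the exact permutation test, the smallest that 3 samples against 2 allow, and 0.4 after adjustment over the 4 ratios. The test therefore could not pass 0.05 whatever the values.

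**Figure D2:**
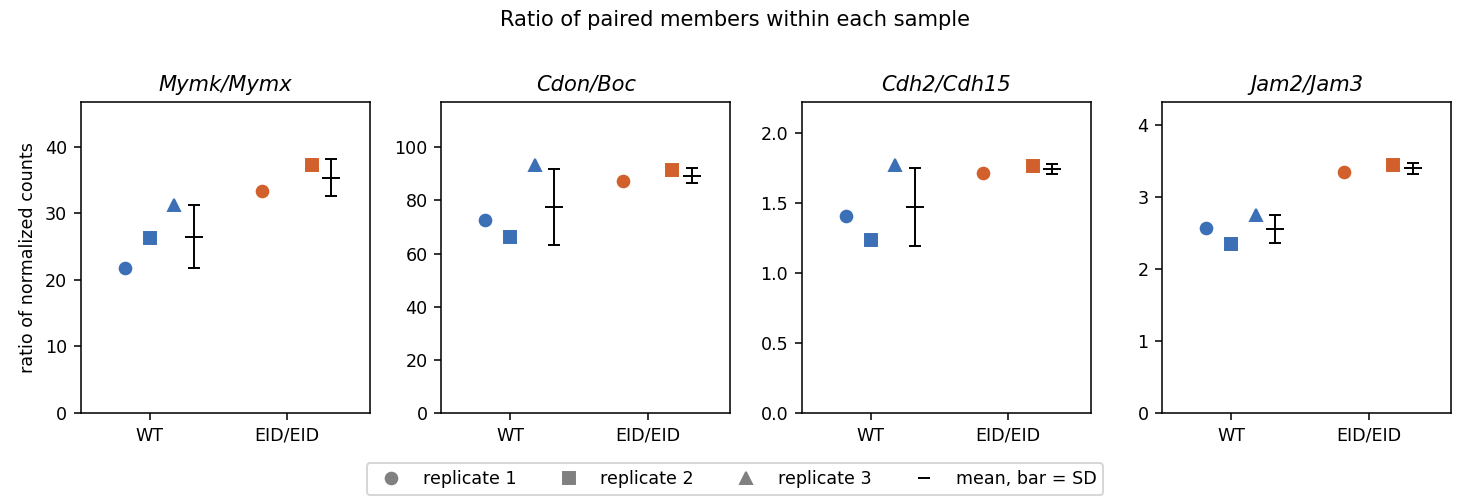
Ratio of normalized counts (vertical axes, starting at 0) of Mymk to Mymx, Cdon to Boc, Cdh2 to Cdh15 and Jam2 to Jam3 within each WT (blue) and Elmo2 EID/EID (orange) sample, with black bars for the mean and SD. The Jam2 to Jam3 ratio is 2.35 to 2.75 in WT and 3.35 to 3.46 in Elmo2 EID/EID, and WT replicate 3 (triangles) is the WT sample nearest to the Elmo2 EID/EID samples for Mymk to Mymx and Jam2 to Jam3 and lies above them for the other 2 ratios.

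WT replicate 3 was the lowest WT sample for Mymk, Mymx, Cdh2, Cdh15, Ctnnb1 and Jam3, the highest for Cdon and Neo1, and between the others for Boc and Jam2. Of the 11223 abundant genes, those whose mean reached 100 normalized counts, it was the lowest for 36.1% and the highest for 36.9%. The SD of the log2 values among the WT samples exceeded the median of these abundant genes, 0.09, for 8 of the 10 genes described. With any single WT sample left out, 0 of the 10 genes were called, where only 134 to 335 of all genes tested were called.

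How much of a change these samples could show differed from gene to gene. For Mymk, Cdh2, Ctnnb1 and Jam2 the 95% confidence intervals of the fold all lay between 0.855 and 1.23. The intervals of the other 6 reached beyond those bounds in at least 1 direction, and those of Mymx, Cdon, Neo1 and Cdh15 included no change. Among abundant genes the central 95% of log2 fold changes ran from -0.67 to 0.56, and each of the 10 genes lay inside it. The smallest log2 fold change, in absolute size, of the 271 abundant genes that were called was 0.35, which the estimates of Mymx and Boc exceeded without being called.

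**Figure D3:**
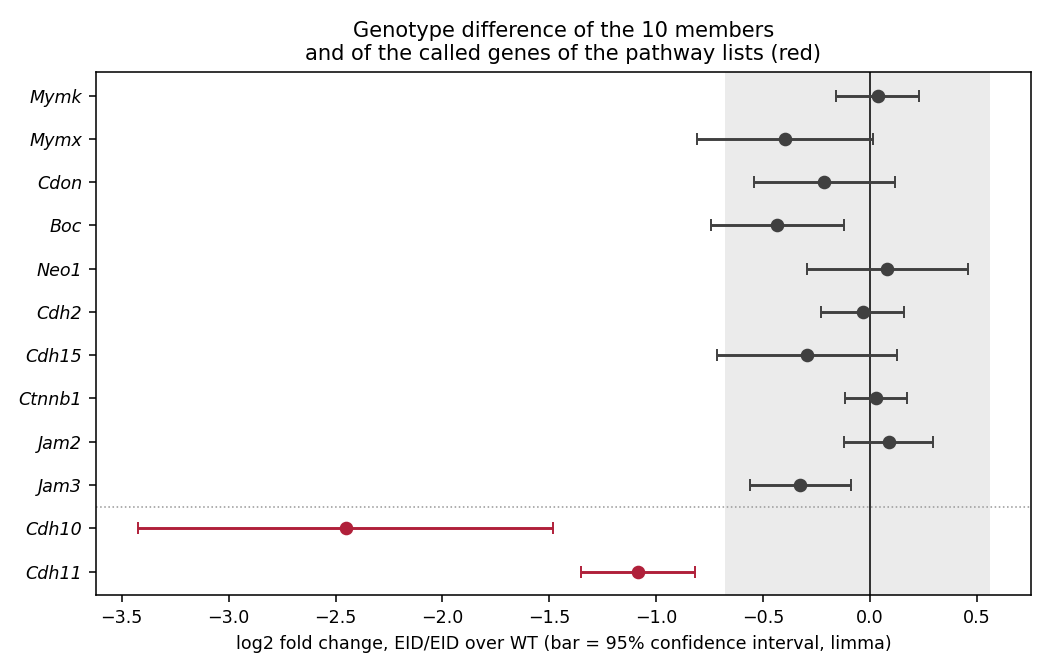
Log2 fold change of Elmo2 EID/EID over WT (horizontal axis) with its 95% confidence interval from limma for the 10 genes (black) and for Cdh10 and Cdh11 (red), the called genes of 4 lists of partner genes. The grey band is the central 95% of genes whose mean reached 100 normalized counts, -0.67 to 0.56, and the 10 genes lie inside it with estimates between -0.43 and 0.09.

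To compare the genes with each other, normalized counts were divided by the length of the merged exons of each gene. On this scale the mean over the 5 samples was 28929 normalized counts per kilobase for Mymk, above 99.7% of the protein-coding genes tested. Ctnnb1 followed with 3316, Cdh15 with 3111, Cdon with 2317 and Cdh2 with 1930.1 normalized counts per kilobase. Mymx had 1471, Jam2 1177, Jam3 781 and Neo1 488, and Boc came last with 49.5, above 32.2% of protein-coding genes tested. The fusogen Mymk thus stood far from all other genes of the set, by 8.40-fold to 9.16-fold over Ctnnb1 in every sample, and Boc stood apart at the other end, with Neo1 6.89-fold to 13.3-fold above it.

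Between these ends the order was partly within the spread of the samples. Ctnnb1 was above Cdh15 in 3 of the 5 samples only, Cdh15 above Cdon in 4 and Mymx above Jam2 in 4. Cdon was above Cdh2 in all 5 samples, though by as little as 1.005-fold, and Cdh2 was above Mymx in all 5, by 1.03-fold at least. Jam2 was 1.245-fold to 1.83-fold above Jam3, and Jam3 1.27-fold to 2.08-fold above Neo1. Cdh2, with 3214.5 normalized counts per kilobase, moved from rank 5 to rank 3 when the length of the longest protein-coding transcript, chosen after the data were seen, was used instead. Cdh15 and Cdon then took ranks 4 and 5, and the other genes kept their ranks.

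**Figure D4:**
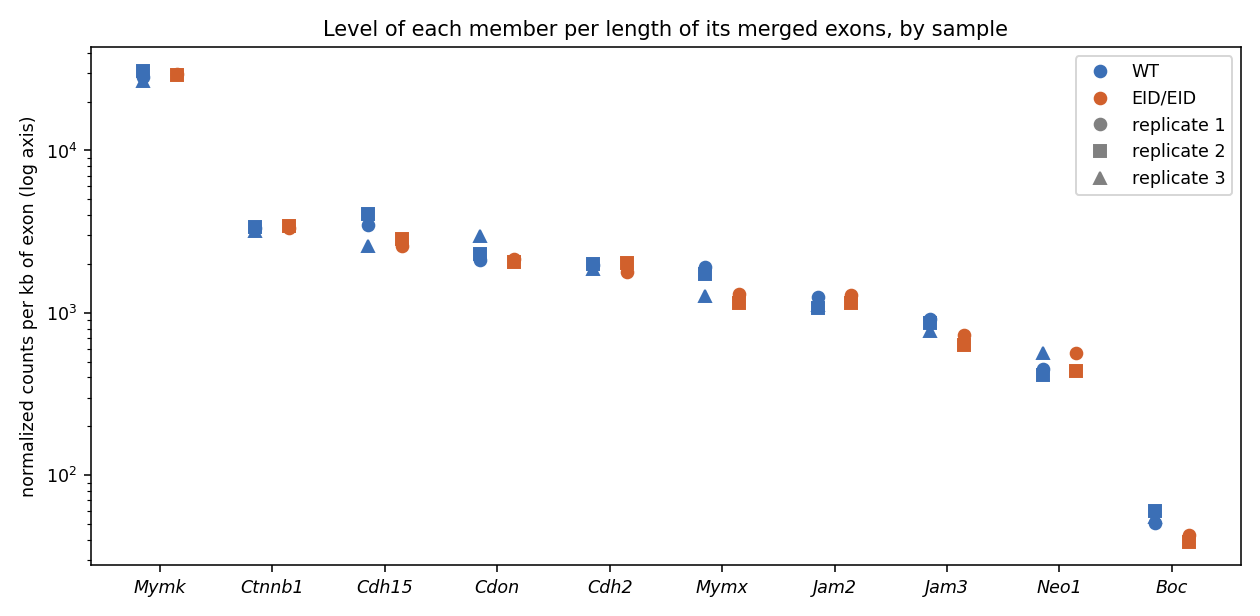
Level of each of the 10 genes per kilobase of merged exon (vertical axis, logarithmic) in WT (blue) and Elmo2 EID/EID (orange) samples, ordered by the mean over the 5 samples. Mymk lies above all other genes in every sample, Boc below them, and the remaining genes lie between 413 and 4042 normalized counts per kilobase.

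The partners of these genes were described from 4 lists. Of the 24 cadherin, catenin and nectin genes tested, limma called 2 as lower and 0 as higher, beside the 2.23% of all genes, and the median log2 fold change was -0.09. An unadjusted p under 0.05 was found for 8 of the 24 (15.2% of all genes), and the groups of 9 did not overlap (32.6% of all genes). EdgeR called 2 (2.25% of all genes), and DESeq2 called 5 (5.34% of all genes), 3 lower and 2 higher. The higher ones, Nectin2 and the actin linker vinculin (Vcl), had log2 fold changes of 0.50 and 0.30 with DESeq2 adjusted p-values of 0.00294 and 0.0201, and limma adjusted p-values of 0.0661 and 0.132. They were named after their values were seen. Cadherin 11 (Cdh11), a classical cadherin of mesenchymal cells, had 1179, 1091 and 1038 normalized counts in WT myoblasts, against 573 and 468 in Elmo2 EID/EID myoblasts. The difference was -1.09 on the log2 scale (SE 0.11, limma adjusted p = 0.00659), with all WT samples above all Elmo2 EID/EID samples. Cadherin 10 (Cdh10), a cadherin best known from the nervous system, had 128, 76.3 and 48.5 normalized counts in WT myoblasts, against 13.41 and 13.45 in Elmo2 EID/EID myoblasts (log2 fold change -2.45, SE 0.41, limma adjusted p = 0.0374). Neither is among the cadherins best known from myoblast contact. Limma without the trend called 0 genes of the list, as did the fit without Elmo2 EID/EID replicate 2, and 1 gene of all 4 lists was called without WT replicate 1. Cdh8 and Cdh22 were too low to be tested.

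Other cadherins of that list had large differences that did not pass limma's test. VE-cadherin (Cdh5), the cadherin of endothelial cells, had 281, 59.5 and 297 normalized counts in WT myoblasts, against 727 and 1001 in Elmo2 EID/EID myoblasts (log2 fold change 2.31, SE 0.67, adjusted p = 0.165 from limma and 0.174 from DESeq2). Cdh6 had 762.5, 739 and 855 against 512.5 and 242 (log2 fold change -1.15, SE 0.28, adjusted p = 0.109 from limma and 0.00489 from DESeq2). Cdh5 is also 1 of a list of 10 endothelial markers, of which 9 had positive log2 fold changes, from 0.36 for Egfl7 to 3.02 for Flt1, and Cldn5 a negative one of -0.66. The groups of all 10 did not overlap (32.6% of all genes), and the median log2 fold change was 1.96. An unadjusted p under 0.05 was found for 7 of the 10 (15.2% of all genes). Limma called 0 of them (2.23% of all genes), edgeR 1 (2.25%) and DESeq2 3 (5.34%). That list summed to between 389 and 1297 normalized counts in the WT samples, lowest in WT replicate 2, and to between 3069 and 4470 in the Elmo2 EID/EID samples, and no marker of it was at or under 3 reads in all samples. In bulk RNA, more cells of a type and more RNA per cell cannot be told apart.

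Of the ligands, co-receptors and effectors of Cdon, Boc and Neo1, 28 were tested and 0 were called, with a median log2 fold change of -0.003 and 5 genes at an unadjusted p under 0.05, against 15.2% of all genes. With edgeR 0 of them were called and with DESeq2 2, both lower, against 5.34% of all genes. The groups of 15 of the 28 did not overlap, against 32.6% of all genes. Rgma, which encodes a membrane-anchored ligand of neogenin, had 861, 707 and 681 normalized counts in WT myoblasts, against 587 and 458 in Elmo2 EID/EID myoblasts (log2 fold change -0.52, SE 0.15, adjusted p = 0.158 from limma and 0.0481 from DESeq2). The other gene called by DESeq2 was Smo, the signal transducer of the hedgehog pathway, which was named after its values were seen. Smo had 903, 860.3 and 833 normalized counts in WT myoblasts, against 672 and 662 in Elmo2 EID/EID myoblasts (log2 fold change -0.38, SE 0.08, adjusted p = 0.0706 from limma and 0.0115 from DESeq2). Ptch1, the hedgehog receptor and a target of the pathway in which Cdon and Boc are co-receptors, had 412, 382.5 and 451 against 462 and 538 (log2 fold change 0.27, SE 0.12, limma adjusted p = 0.352). Rgma, Smo and Ptch1 were among the 15 genes whose groups did not overlap. Dcc, a receptor related to Neo1, and Shh, the hedgehog ligand, were at 0 in every sample, which allows up to 2.65 to 3.73 normalized counts by sample.

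Among 25 partners of the Jam proteins and other contact receptors tested, 0 were called by limma or edgeR and 5 by DESeq2 (1 higher and 4 lower, against 5.34% of all genes called), with a median log2 fold change of 0.06. An unadjusted p under 0.05 was found for 8 of the 25, against 15.2% of all genes, and the groups of 8 did not overlap, against 32.6%. The coxsackievirus and adenovirus receptor Cxadr, an immunoglobulin-type adhesion protein of the same wider family as the Jam proteins, came nearest to the limma threshold, with 202, 248 and 139 normalized counts in WT myoblasts, against 80.5 and 64.55 in Elmo2 EID/EID myoblasts (log2 fold change -1.39, SE 0.26, adjusted p = 0.0524 from limma and 0.000203 from DESeq2). Cd36, a scavenger receptor, had 9830.2, 8069.5 and 7990.5 against 9603 and 12882 (log2 fold change 0.37, limma adjusted p = 0.29), with overlapping groups. Igsf5, Tjp3, Kirrel2, Nphs1 and Adgrb3 were too low to be tested.

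Of 39 genes of Wnt and beta-catenin signaling, 0 were called by limma or edgeR and 2 by DESeq2, both lower (5.34% of all genes), with a median log2 fold change of -0.02 and 5 genes at an unadjusted p under 0.05 (15.2% of all genes). The groups of 13 did not overlap (32.6% of all genes). The transcription factor Lef1, which partners beta-catenin on DNA, had 183, 195 and 162 normalized counts in WT myoblasts, against 102 and 59.2 in Elmo2 EID/EID myoblasts (log2 fold change -1.20, SE 0.25, adjusted p = 0.0678 from limma and 0.00247 from DESeq2). The Wnt antagonist Dkk2 varied within the groups more than between them, at 205, 14.6 and 51.0 against 54.55 and 308 normalized counts (limma adjusted p = 0.673). Tcf7l2, the other gene of this list called by DESeq2, was named after its values were seen (log2 fold change -0.54, adjusted p = 0.084 from limma and 0.0132 from DESeq2). Rnf43 was too low to be tested.

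**Figure D5:**
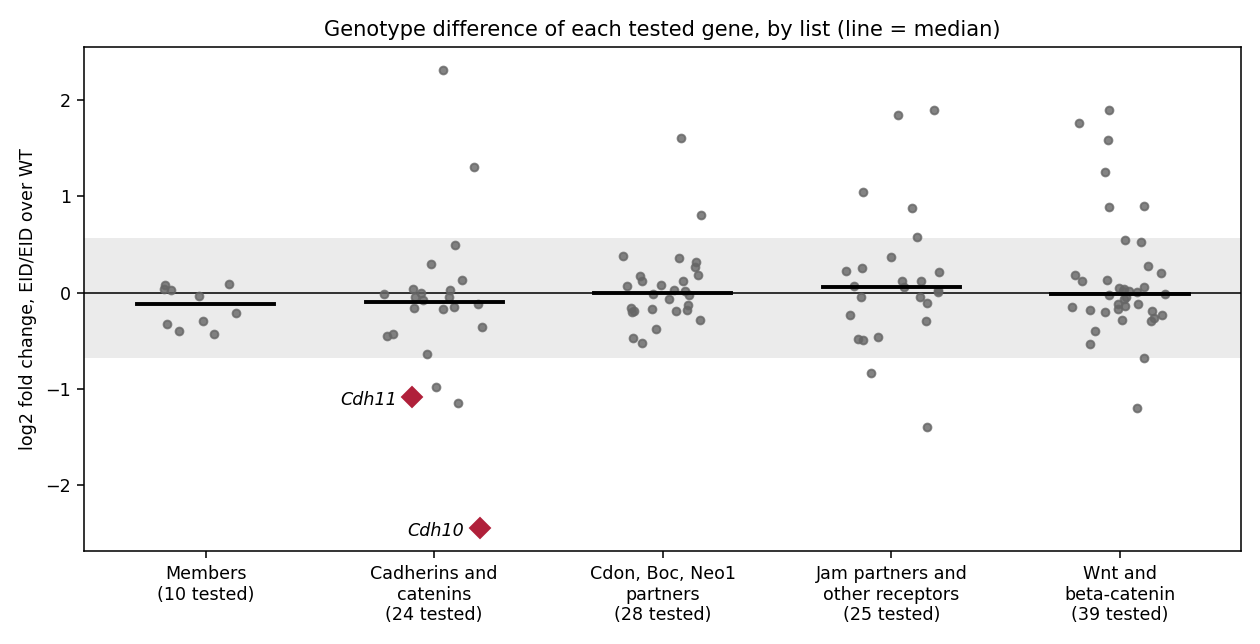
Log2 fold change of Elmo2 EID/EID over WT (vertical axis) for each tested gene of the 10 genes described and of the 4 lists of partners, with black lines for the medians, a grey band for the central 95% of abundant genes (-0.67 to 0.56) and red diamonds for called genes. The 10 genes lie within the band, and Cdh10 and Cdh11 are the called genes.

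Other measures of the cultures moved with the genotype or with single samples alongside these values. Pax7, the transcription factor of satellite cells, was lower in Elmo2 EID/EID myoblasts, at 922, 942 and 837 normalized counts in WT myoblasts, against 414 and 298 in Elmo2 EID/EID myoblasts (log2 fold change -1.35, SE 0.15, limma adjusted p = 0.00764). The other satellite cell markers tested had log2 fold changes of both signs, at 0.74 for Myf5, 1.42 for Cd34, -0.40 for Spry1 and -0.43 for Chrdl2, and Calcr was at the floor of 3 reads. Of the 5 tested, 4 had an unadjusted p under 0.05 (15.2% of all genes). Limma and edgeR each called 1 of them (2.23% and 2.25% of all genes), and DESeq2 called 2 (5.34%). The 6 markers, of which Myf5 and Spry1 gave most counts, summed to between 6222 and 8638 in the WT samples and between 7909.7 and 8414 in the Elmo2 EID/EID samples. The 10 markers of cycling cells summed to between 3616 and 4818 normalized counts in the WT samples, lowest in WT replicate 3, and between 3313 and 3494.5 in the Elmo2 EID/EID samples, with 0 called by limma, edgeR or DESeq2. All 10 had negative log2 fold changes, with a median of -0.37, 5 had an unadjusted p under 0.05 (15.2% of all genes) and the groups of 6 did not overlap (32.6% of all genes). WT replicate 3 was likewise the lowest WT sample for 6 of the 10 genes described, Mymx and Cdh15 among them, and for 36.1% of abundant genes. Of the pericyte and smooth muscle markers, Rgs5 and Notch3 had log2 fold changes of -2.97 and -1.55 (limma adjusted p = 0.00759 and 0.028). Myh11 and Cspg4 had log2 fold changes of 1.42 and 0.39 (limma adjusted p = 0.25 and 0.264). Of the 6 tested, 4 had an unadjusted p under 0.05 (15.2% of all genes), and the groups of 4 did not overlap (32.6% of all genes). Limma, edgeR and DESeq2 each called 2 (2.23%, 2.25% and 5.34% of all genes). These 7 markers, of which Abcc9 alone gave between 5144 and 7209 normalized counts per sample, summed to between 10989 and 12819 in the WT samples and between 9956 and 10013 in the Elmo2 EID/EID samples, with Kcnj8 at the floor. The 8 markers of fibro-adipogenic progenitors summed to between 223 and 1601.8 in the WT samples, lowest in replicate 2, and between 1177 and 1299 in the Elmo2 EID/EID samples, with Pi16 and Lum at the floor. The 8 Schwann cell markers summed to between 16147.5 and 17059 in the WT samples and between 15618.5 and 16019 in the Elmo2 EID/EID samples, of which Erbb3 alone gave between 15067 and 16916 per sample. The other 7 had positive log2 fold changes, and the median of the list was 1.31. The 6 macrophage markers summed to between 38.5 and 68.4 in the WT samples and between 56.5 and 202 in the Elmo2 EID/EID samples, with Ptprc at the floor. Of these last 3 lists 0 genes were called by limma, edgeR or DESeq2, and 1 of 6, 2 of 8 and 1 of 5 tested had an unadjusted p under 0.05 (15.2% of all genes). The part of these measures in the values of Boc, Jam3, Mymx, Cdh15, Cdh10 and Cdh11 was not tested.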

How the data were processed

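The authors aligned read pairs of poly-A RNA to GRCm38 with STAR 2.5.1b without trimming, assigned unique alignments to genes by reverse strand with featureCounts 1.4.6, and scaled the counts with DESeq2 (1.34.0 in the submitters' processing notes). The deposited signal is therefore a count over the size factor of its sample. Expressed in units of the smallest positive value of its sample, the table gave whole reads for 100.0% of positive values, within 0.01 of a read. Genes were named from GENCODE release M21 on GRCm38 (54165 of 54232 identifiers). Genes reaching 5 normalized counts in 1 sample or more were tested two-sided with limma 3.58.1 (lmFit, then eBayes with the trend option) on log2(normalized count + 1), which understates changes of scarce genes, with p-values adjusted by Benjamini-Hochberg and called under 0.05. EdgeR 4.0.16 and DESeq2 1.42.0 were run on the recovered reads. Depth is given in the report, and 3 reads, taken as the floor, equal 2.65 to 3.73 normalized counts. The scripts were tested on simulated counts in which 100 genes changed by 1 and 100 by 0.5 on the log2 scale. Limma recovered 84% and 27% of them, edgeR 84% and 30%, and DESeq2 92% and 49%. Of the calls, 8.26% were false with limma, 6.56% with edgeR and 19.89% with DESeq2.

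The 10 genes, the lists of partners and markers and the rule for named genes were chosen with earlier results of these data known. Besides the 10 genes, the rule takes every called gene of a partner list and the largest positive and negative difference among its genes averaging 100 normalized counts or more. Ratios were tested with an exact permutation test over 10 splits. Alternatives were pseudocounts of 0.5 and 5, other filters, quantile normalization, equal totals, limma without the trend, the count tests, a block for the replicate number, and the omission of each sample in turn. Ntn3, Hjv and Amica1 were not matched by symbol (Hjv is listed as Hfe2 and was counted under that name). R 4.3.3 and Python 3.11.15 with pandas 2.3.3, scipy 1.17.1 and matplotlib 3.10.9 were used.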

Additional observations from a re-analysis of the deposited data

How the results depend on the processing

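Over 15 alternatives the 10 genes gave 150 fold changes, of which 145 kept their sign, 5 changed sign and 0 passed the threshold. The sign changes concerned values near 0: Mymk was -0.012 with the replicate block and ranged from -0.012 (without WT replicate 3) to 0.092 with 1 sample left out, Neo1 from -0.11 to 0.27 and Cdh2 from -0.13 to 0.066. Of all genes, limma called 404, against 155 with no filter on low values, 144 without the trend, 969 with DESeq2 and 34 to 335 with 1 sample left out, the fewest without Elmo2 EID/EID replicate 2. Of the partner lists, limma called 2 genes, against 1 with no filter, 0 without the trend, 14 with DESeq2 and 0 to 3 with 1 sample left out (1 without WT replicate 1 and 0 without Elmo2 EID/EID replicate 2). Without a sample fewer samples enter the fit, and for the other settings the cause was not tested. The labels do not say whether same-numbered samples share a culture or day. Across 15107 genes, the step from replicate 1 to replicate 2 correlated at -0.201 between the genotypes. A single step per genotype cannot decide the question. With the replicate block, a pairing the labels do not explain, 224 genes were called, with 3 of the partner lists and 0 of the 10 genes. No scaling moved the median log2 fold change of all genes beyond -0.003 to 0.011. Depth limits Boc most, at 193 to 256 reads per sample.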
